A study of Mus musculus with 8 samples.

Results

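Transcripts of nitric oxide synthesis and signalling were examined in bulk RNA sequencing of mouse heart. The group consists of 10 genes, taken from the table of 27304 genes by symbol: the NO synthases Nos1, Nos2 and Nos3, the arginases Arg1 and Arg2, the hydrolases Ddah1 and Ddah2, the cofactor enzyme Gch1, and the guanylate cyclase subunits Gucy1a1 and Gucy1b1. Each symbol matched a single row. The hearts came from male 129/Sv mice, an inbred strain. The adenine group (4 libraries) ate a diet with 0.15% adenine for 13 weeks, which damages the kidney tubules and is used to model chronic kidney disease. The control group (4 libraries, titled Sham) ate a standard diet for the same 13 weeks. Tissue was rinsed and snap-frozen after removal, and neither the animals' age nor the part of the heart taken is stated in the labels.

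Nitric oxide is made from L-arginine by the NO synthases, which need tetrahydrobiopterin as a cofactor, and it activates soluble guanylate cyclase, whose product cGMP relaxes vascular smooth muscle and tunes cardiac contraction. Endothelial NO synthase (Nos3) is made by endothelium and cardiomyocytes, neuronal NO synthase (Nos1) by neurons and cardiomyocytes, and inducible NO synthase (Nos2) by activated macrophages and other stimulated cells. Arginases take away the same substrate, and asymmetric dimethylarginine (ADMA), a circulating inhibitor of NO synthases that accumulates when the kidney fails, is broken down by the DDAH enzymes.

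Total counts per library were 15626620 to 33886385, with the lowest in adenine 2. Values are given in CPM, counts scaled to a common library size with the library's TMM factor. Defining markers of cardiomyocytes were abundant in every library. They summed to 46280 to 62100 CPM over 9 genes in control hearts and 31640 to 54380 CPM in adenine hearts. The lowest sum, 31640 CPM, was in adenine 3, and every other library had at least 46150 CPM. Adenine 3 stood apart, with 2815 CPM over 12 macrophage markers against 352 to 534 CPM in the remaining adenine hearts and 438 to 757 CPM in control hearts. Lyz2 alone gave 2065 of these CPM, and without it adenine 3 had 749.7 CPM against 206 to 447 CPM in the other libraries. Adenine 2 had the highest level over olfactory and vomeronasal receptor genes, a class known from sensory neurons: 2103 unscaled CPM over 1472 genes, against 369 to 1312 unscaled CPM in the others. Nothing in the labels ties each library to its own animal. All p-values below therefore measure the spread between these samples alone, which may be technical.

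None of the 10 genes changed between the diets at an adjusted p under 0.05 in edgeR's quasi-likelihood test over 20093 genes, where 0.0398% of all genes were called. All 10 passed the low-count filter. At an unadjusted p under 0.05, 4 of the 10 were lower on the adenine diet (Nos2, Ddah2, Gucy1a1 and Gucy1b1) and 1 was higher (Arg1), against a background of 6.63% lower and 10.9% higher over all genes tested. DESeq2 called 1 of the 10, Nos2, which was lower, and limma-voom called 0. DESeq2 called 1.63% of all genes, and 0.871% of all genes in the lower direction. The median log2 fold change, adenine minus control, was -0.15 over the 10 genes and 0.05 over all genes tested. Only Gucy1b1, 1 of the 10, had all its adenine libraries below all its controls, as had 3.84% of all genes tested.

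**Figure D1:**
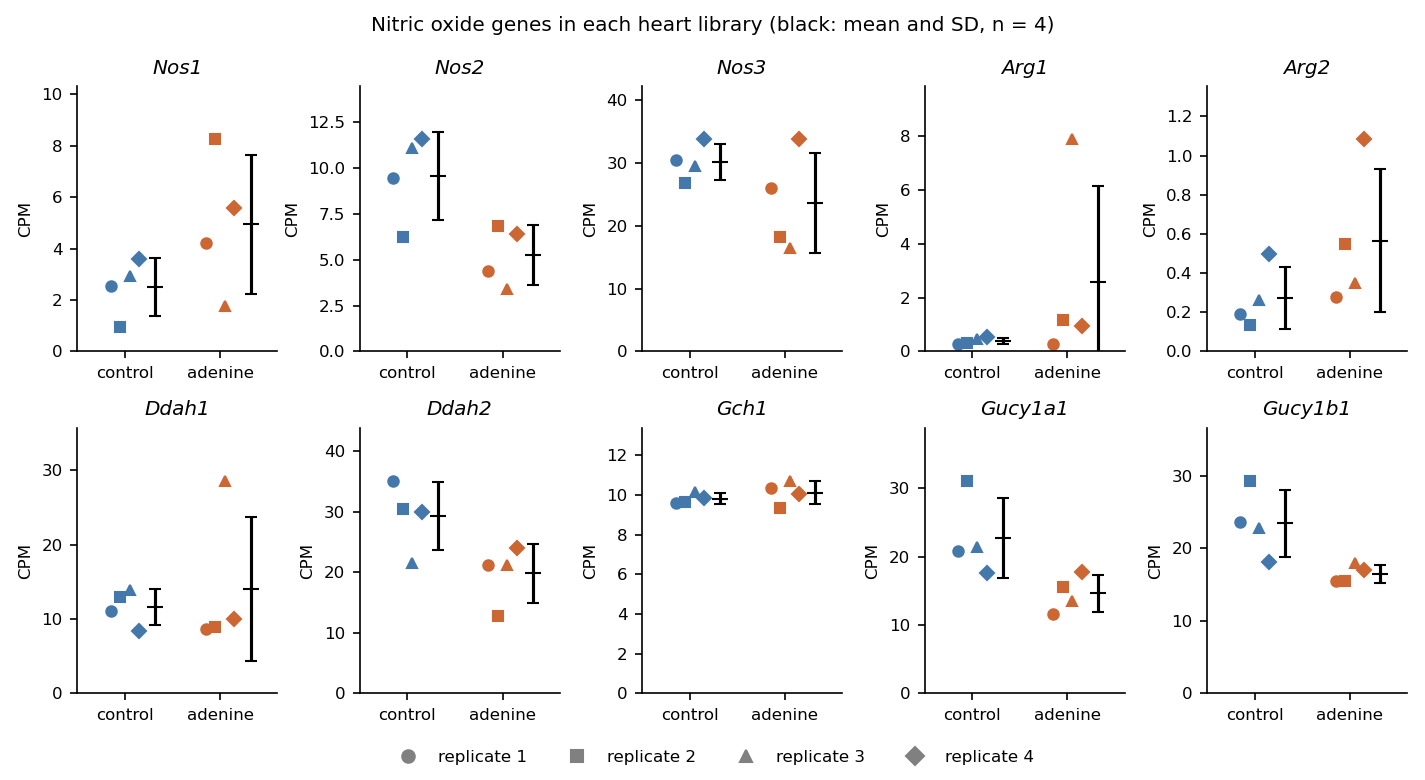
CPM of each of the 10 genes in each heart library (points; marker shape gives the replicate number), with mean and SD of 4 libraries in black; the lower end of the Arg1 bar for adenine is cut at 0. Gucy1b1 has all 4 adenine libraries at or below 18.02 CPM and all controls at or above 18.1 CPM, whereas Arg1 and Ddah1 have 1 adenine library far above the rest.

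Levels of different genes were compared per length, as CPM per kb of annotated exon. In the controls Ddah2 led with 18.4 ± 3.54 CPM per kb (SD, n = 4), and its range did not overlap that of Nos3, the next gene, with 7.30 ± 0.694. Nos3 and Gucy1b1 (5.97 ± 1.17) overlapped, and Gucy1b1 stood above Gucy1a1 (3.26 ± 0.830) without overlap. Gucy1a1, Ddah1 (2.91 ± 0.613), Nos2 (2.17 ± 0.546) and Gch1 (1.57 ± 0.0424) each overlapped the next in this order. Nos1 (0.225 ± 0.101), Arg2 (0.190 ± 0.111) and Arg1 (0.177 ± 0.0528) overlapped each other and lay below Gch1 without overlap. Among all genes tested, the control mean of Nos1 was above 16.3%, that of Arg2 above 12.7% and that of Arg1 above 11.3%, whereas Ddah2 was above 92%. In the adenine libraries Ddah2 (12.4 ± 3.03) and Nos3 (5.72 ± 1.92) again came first, and the range of each gene overlapped that of the next in the order.

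**Figure D2:**
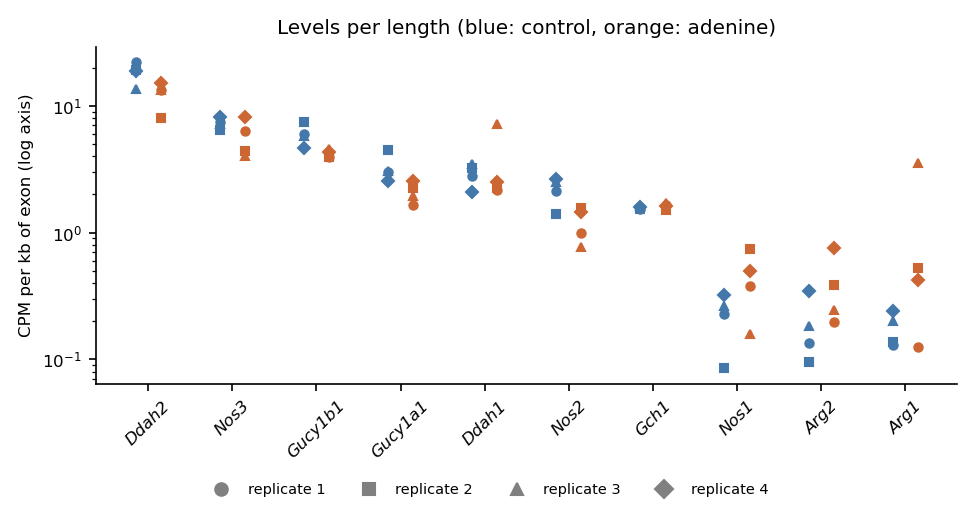
Level of each gene per length, in CPM per kb of exon on a log axis, in the 4 control (blue) and 4 adenine (orange) libraries, ordered by the control mean. Ddah2 is the most abundant and Nos1, Arg2 and Arg1 the least, except that Arg1 reaches 3.54 CPM per kb in adenine 3.

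Nos3, the endothelial NO synthase, was the most abundant of the synthases per length. It made up 75.6 ± 4.03% of the CPM per kb of the 3 synthases in control hearts and 77.4 ± 7.77% in adenine hearts (SD, n = 4). Its level was 30.5, 26.8, 29.6 and 33.8 CPM in controls 1 to 4 and 26.03, 18.2, 16.5 and 33.8 CPM in adenine 1 to 4. Adenine 1, adenine 2 and adenine 3 were below every control, while adenine 4 was as high as the highest control. The log2 fold change was -0.35 (SE 0.21, 95% interval -0.80 to 0.09, adjusted p = 0.351 in edgeR). Without adenine 3 it was -0.22, and without adenine 4 it was -0.57. Nos3 (ENSMUSG00000028978) lies on chromosome 5 at 24364810 to 24384474 of GRCm38, on the plus strand. Exons of Atg9b on the opposite strand cover 7.12% of its exon bases, those of the antisense gene Gm15587 25.2%. The strand setting of the counting is not known from the labels or headers, so its level is uncertain to that extent.

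Endothelial markers pointed in the same direction as Nos3. Of 13 such markers, 11 had negative log2 fold changes and none passed, with a median of -0.38, and their summed level was 1022 to 1348 CPM in control hearts and 854 to 1172 CPM in adenine hearts. In bulk tissue, fewer cells of a type and less RNA per cell cannot be told apart. Within each library, log2 CPM of Nos3 minus the mean log2 CPM of these markers was -1.41 ± 0.108 in control hearts and -1.48 ± 0.251 in adenine hearts (SD, n = 4). The difference between the diets was -0.075 (exact two-sided permutation p = 0.657, adjusted over 8 such differences 0.849), and it ran from -0.19 to -0.002 as each library was left out. The ratio spread further in adenine hearts than in the controls, from -1.70 in adenine 3 to -1.13 in adenine 4.

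Nos2, the inducible NO synthase, was the member with the lowest p. It measured 9.44, 6.23, 11.07 and 11.6 CPM in controls 1 to 4, from 184 to 303 reads. In adenine 1 to 4 it measured 4.40, 6.85, 3.41 and 6.43 CPM, from 107 to 172 reads. All adenine libraries were below 3 of the 4 controls, and control 2 lay within the adenine range. The log2 fold change was -0.87 (SE 0.26, 95% interval -1.43 to -0.31), which is a 1.83-fold lower level, with an adjusted p of 0.218 in edgeR and 0.0467 in DESeq2. It stayed between -1.05 (without control 2) and -0.71 (without adenine 3) as each library was left out, with adjusted p-values of 0.0857 to 0.477. With the receptor background as a covariate, a setting chosen after seeing the data, it was -1.31 (SE 0.19, adjusted p = 0.0302 in edgeR), one of the 0.00995% of genes called lower there. Nos2 (ENSMUSG00000020826) spans 78920787 to 78960254 on the plus strand of chromosome 11, with no exon shared with another gene.

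Macrophage markers differed in direction from Nos2 in 1 adenine library. Adenine 3, with the highest summed macrophage level, had the lowest Nos2 level of all libraries. Of the 12 macrophage markers, 10 had positive log2 fold changes and none passed. Without adenine 3 all 12 had negative log2 fold changes (median -0.41), the direction of Nos2. Nos2 relative to these markers was -1.19 ± 0.555 log2 units in control hearts and -2.24 ± 1.47 in adenine hearts (difference -1.05, exact two-sided permutation p = 0.171, adjusted p = 0.457), and the difference was -0.35 without adenine 3. Relative to Nos3, Nos2 was at -1.68 ± 0.295 and -2.14 ± 0.509 log2 units (difference -0.46, exact permutation p = 0.171, adjusted p = 0.457). The share of Nos2 in the CPM per kb of the synthases was 22.0, 17.7, 25.3 and 23.6% in controls 1 to 4. It was 13.0, 23.2, 15.7 and 14.4% in adenine 1 to 4, where 3 libraries lay below all controls and adenine 2 within them.

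Nos1, the neuronal NO synthase, was scarce, with 28 to 149 reads per library. Its level was 2.55, 0.949, 2.94 and 3.59 CPM in controls 1 to 4 and 4.20, 8.25, 1.78 and 5.57 CPM in adenine 1 to 4. Adenine 1, adenine 2 and adenine 4 were above all controls and adenine 3 below 3 of them. Nos1 had a log2 fold change of 0.97 (SE 0.45, 95% interval -0.002 to 1.94, adjusted p = 0.287 in edgeR). The reads on olfactory and vomeronasal receptor genes were 583, 369, 806 and 924 unscaled CPM in controls 1 to 4 and 667, 2103, 688 and 1312 in adenine 1 to 4. Adenine 2 and adenine 4 were the highest, and control 2 the lowest, in both measures. With that background as a covariate, Nos1 had a log2 fold change of 0.19 (SE 0.32, adjusted p = 0.923). It was 0.62 without adenine 2, and 0.35 without control 2 and adenine 2. Without adenine 3 it was larger, at 1.245 (SE 0.353, adjusted p = 0.0751 in edgeR). Markers of neurons and Schwann cells summed to 21.9 to 28.3 CPM over 9 genes in control hearts and 23.0 to 31.2 CPM in adenine hearts, with Th at 0 in at least 1 library. Nos1 (ENSMUSG00000029361) occupies 117781032 to 117958840 on the plus strand of chromosome 5, with 11151 exon bases.

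**Figure D3:**
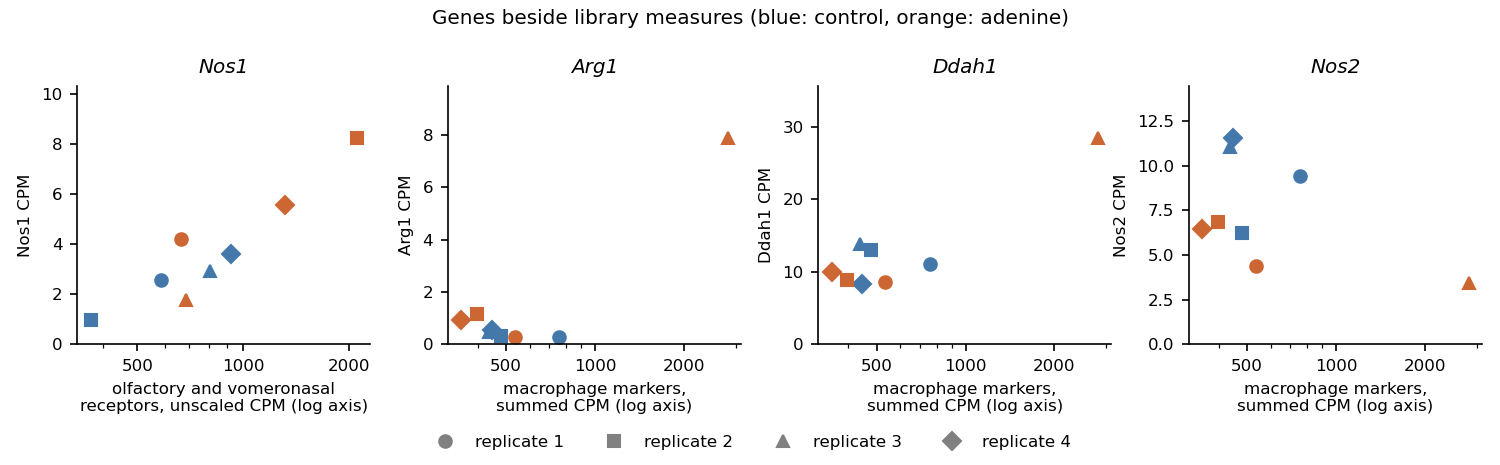
CPM of Nos1 beside the unscaled CPM of olfactory and vomeronasal receptor genes, and of Arg1, Ddah1 and Nos2 beside the summed CPM of 12 macrophage markers (log axes), in each control (blue) and adenine (orange) library. Adenine 2 is highest for Nos1 and for the receptor genes, and adenine 3, at 2815 CPM of macrophage markers, is highest for Arg1 and Ddah1 and lowest for Nos2.

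Gch1, GTP cyclohydrolase, the first enzyme of tetrahydrobiopterin synthesis, had nearly one level in all libraries. It measured 9.61, 9.62, 10.2 and 9.86 CPM in controls 1 to 4 and 10.4, 9.36, 10.7 and 10.06 CPM in adenine 1 to 4. The log2 fold change was 0.045 (SE 0.14, adjusted p = 0.86 in edgeR), with a 95% interval of -0.26 to 0.35. The other genes of this cofactor's synthesis and recycling were given by a list of 6, all tested and none past the threshold, of which 1 had a positive and 5 a negative log2 fold change. Those with the lowest p were Qdpr, which recycles the oxidised cofactor, with -0.26 (SE 0.15), Spr, sepiapterin reductase of the last synthetic step, with -0.28 (SE 0.17), and Gchfr, the feedback regulator of Gch1, with -0.35 (SE 0.24).

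Arg1, the arginase of hepatocytes and of alternatively activated macrophages, was near the limit of detection in all libraries but adenine 3. It had 9, 9, 12 and 14 reads in controls 1 to 4 and 7, 19, 248 and 25 reads in adenine 1 to 4. In CPM these were 0.290, 0.305, 0.447 and 0.535 in control hearts and 0.280, 1.16, 7.90 and 0.935 in adenine hearts. Adenine 1 was below every control and the other 3 adenine libraries were above. The log2 fold change of 2.72 (SE 0.82, adjusted p = 0.222 in edgeR) was 0.97 without adenine 3. It was 3.119 (SE 0.868, adjusted p = 0.29 in edgeR) with the receptor background as a covariate. Relative to the macrophage markers, Arg1 was at -5.55 ± 0.640 log2 units in control hearts and -4.14 ± 1.15 in adenine hearts (difference 1.40, exact two-sided permutation p = 0.114, adjusted p = 0.457). Adenine 3 had the highest ratio, -3.14, and adenine 2 and adenine 4 followed at -3.75 and -3.88, above the control maximum of -5.01, while adenine 1, at -5.80, was within the control range. The part of macrophage content in the Arg1 level was not tested beyond this ratio. Arg1 (ENSMUSG00000019987) is on the minus strand of chromosome 10, at 24915221 to 24927484.

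Arg2, the mitochondrial arginase, had 4 to 13 reads in control hearts and 7 to 29 in adenine hearts. Its level was 0.193, 0.136, 0.261 and 0.497 CPM in controls 1 to 4 and 0.280, 0.550, 0.350 and 1.08 CPM in adenine 1 to 4. Only adenine 2 and adenine 4 exceeded the highest control. Arg2 had a log2 fold change of 1.06 (SE 0.61, adjusted p = 0.346 in edgeR), 0.52 without adenine 4 and 0.40 with the receptor background as a covariate. Exons of Vti1b on the opposite strand, a gene with 69.7 to 122.1 CPM, cover 20.0% of the exon bases of Arg2, and those of the antisense gene Gm48780 cover 8.12%. Some of these few reads could therefore belong to them. Arg2 (ENSMUSG00000021125) spans 79130777 to 79156301 on chromosome 12. Arg1 minus Arg2 was 0.51 ± 0.322 log2 units in control hearts and 1.25 ± 2.05 in adenine hearts, with 4.23 in adenine 3 and -0.20 to 0.98 in the other 3 (exact permutation p = 0.743, adjusted p = 0.849). The direction of this difference turned to -0.24 without adenine 3.

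The 10 other genes of arginine transport and use gave no call in edgeR, with 5 log2 fold changes of either sign. Slc3a2, the heavy chain of amino acid exchangers, was higher in all 4 adenine libraries (34.7 to 45.3 CPM) than in any control (23.4 to 34.5 CPM). Its log2 fold change was 0.46 (SE 0.15, adjusted p = 0.24 in edgeR). It was 0.643 (SE 0.139, adjusted p = 0.155 in edgeR) with the receptor background as a covariate. Agmat, agmatinase, had 0.71 (SE 0.40), and Odc1, ornithine decarboxylase of polyamine synthesis, -0.26 (SE 0.15).

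Ddah1 and Ddah2, the ADMA hydrolases, differed in their pattern over the libraries. Ddah2 was the more abundant per length, with 85.9 ± 4.69% of their joint CPM per kb in control hearts and 78.7 ± 9.86% in adenine hearts. It measured 35.1, 30.5, 21.5 and 30.0 CPM in controls 1 to 4 and 21.3, 12.8, 21.2 and 24.0 CPM in adenine 1 to 4. Adenine 4 was above control 3, and the other 3 adenine libraries were below every control. For Ddah2 the log2 fold change was -0.56 (SE 0.20, 95% interval -0.99 to -0.13, adjusted p = 0.249 in edgeR). It ranged from -0.66 to -0.40 as each library was left out. It was -0.372 (SE 0.213, unadjusted p = 0.108, adjusted p = 0.691 in edgeR) with the receptor background as a covariate.

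Ddah1 measured 11.1, 13.0, 13.9 and 8.37 CPM in controls 1 to 4 and 8.60, 8.93, 28.5 and 10.02 CPM in adenine 1 to 4. Adenine 3 was at over 2 times the highest control, and the other adenine libraries lay within the control range. The log2 fold change of 0.28 (SE 0.35, adjusted p = 0.629 in edgeR) turned to -0.35 (SE 0.19, adjusted p = 0.217) without adenine 3. Ddah1 minus Ddah2 was -1.34 ± 0.535 log2 units in control hearts and -0.66 ± 0.809 in adenine hearts, a difference of 0.68 (exact two-sided permutation p = 0.229, adjusted p = 0.457), which was 0.31 without adenine 3. Per length, Ddah1 made up 35.0% of the pair in adenine 3, 13.9 to 21.8% in the remaining adenine hearts and 10 to 20.5% in the controls. Fibroblast markers went both ways there. Their sum over 8 genes was 2289 CPM, against 653 to 1031 CPM in the remaining adenine hearts and 1185 to 1783 CPM in control hearts, but only Col1a1, Col1a2 and Mfap5 were at their highest in adenine 3. Pdgfra, Dpt, Tcf21 and Dcn were below every control, and 5 of the 8 had negative log2 fold changes between the diets (median -0.66). The part of either cell type in the Ddah1 level was not tested.

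Upstream sequence of the DDAH pair is shown because the 2 genes encode enzymes of one reaction and had different patterns over the libraries. RefSeq windows of 250 bases before the RefSeq gene start were available for 6 of the 10 genes on GRCm38.p6, and bases in annotated exons were left out. Searched on both strands were the CCAAT box (CCAAT), the GC box (GGGCGG) and the TATA box (TATAAA), present in 33.9%, 32.7% and 12.4% of 32851 windows. Capitals mark matches, and the RefSeq gene start follows the last base shown, except for Ddah1, where it lies 18 bases on. The windows are chr3:145758442-145758674 (plus strand) and chr17:35058785-35059034 (plus strand).
Ddah1: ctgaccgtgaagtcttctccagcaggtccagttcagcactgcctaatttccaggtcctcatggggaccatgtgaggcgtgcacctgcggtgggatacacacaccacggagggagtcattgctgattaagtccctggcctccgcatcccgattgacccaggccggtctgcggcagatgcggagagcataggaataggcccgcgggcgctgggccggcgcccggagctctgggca
Ddah2: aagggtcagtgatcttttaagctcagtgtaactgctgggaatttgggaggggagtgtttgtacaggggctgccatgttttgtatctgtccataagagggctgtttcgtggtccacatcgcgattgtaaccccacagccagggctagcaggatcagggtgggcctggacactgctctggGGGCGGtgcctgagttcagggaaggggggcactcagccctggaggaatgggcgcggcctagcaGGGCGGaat
Ddah2 holds 2 GC boxes, and none of the searched letters is in the Ddah1 stretch, whose GC content of 63.1% compares with 58.0% for Ddah2 and a median of 52.4% over all windows.

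Enzymes that form or transaminate ADMA were given by a list of 6, of which 5 were tested and none passed in edgeR. Agxt2, a mitochondrial aminotransferase that can also degrade ADMA, was higher in all 4 adenine libraries, with 1.04, 3.91, 1.11 and 1.87 CPM, than in control hearts, with 0.645, 0.407, 0.522 and 0.841 CPM. Its log2 fold change was 1.69 (SE 0.48, adjusted p = 0.214 in edgeR and 0.034 in DESeq2). As for Nos1, the highest value was in adenine 2 and the lowest in control 2, and with the receptor background as a covariate it had 0.82 (SE 0.31, adjusted p = 0.457). Prmt3 and Prmt1, protein arginine methyltransferases, had -0.26 (SE 0.15) and -0.27 (SE 0.16).

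Gucy1a1 and Gucy1b1 encode the alpha and beta subunits of soluble guanylate cyclase, the NO receptor, which is active as a dimer of both. Both had lower means in adenine hearts, and neither passed over all genes. Gucy1b1 measured 23.6, 29.3, 22.8 and 18.1 CPM in controls 1 to 4 and 15.5, 15.5, 18.02 and 17.01 CPM in adenine 1 to 4. Every adenine library was below every control, though adenine 3 was only just below control 4. This gave a log2 fold change of -0.51 (SE 0.16, 95% interval -0.85 to -0.16), a 1.42-fold lower level, with an adjusted p of 0.228 in edgeR and 0.139 in DESeq2. It was -0.345 (SE 0.166, unadjusted p = 0.0617, adjusted p = 0.61 in edgeR) with the receptor background as a covariate.

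Gucy1a1 measured 20.8, 31.03, 21.3 and 17.7 CPM in controls 1 to 4 and 11.6, 15.6, 13.5 and 17.7 CPM in adenine 1 to 4. Adenine 4 was level with control 4, and the other adenine libraries were below all controls. Its log2 fold change was -0.64 (SE 0.19, 95% interval -1.05 to -0.22), with an adjusted p of 0.222 in edgeR and 0.0848 in DESeq2. It was -0.586 (SE 0.243, adjusted p = 0.516 in edgeR) with the receptor background as a covariate. Control 2 was the highest library for both subunits, and without it the log2 fold changes were -0.46 for Gucy1a1 and -0.38 for Gucy1b1. In CPM not divided by length, Gucy1a1 minus Gucy1b1 was -0.056 ± 0.11 log2 units in control hearts and -0.19 ± 0.260 in adenine hearts (exact two-sided permutation p = 0.371, adjusted p = 0.594). Over the libraries it ran from -0.418 in adenine 1 to 0.084 in control 2.

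Mural cells, the pericytes and smooth muscle cells of vessels in which guanylate cyclase is known to act, had marker levels that pointed the same way. Of 11 mural markers 9 had negative log2 fold changes and none passed, with a median of -0.32, and they summed to 922 to 1302 CPM in control hearts and 751 to 1026 CPM in adenine hearts. Gucy1b1 minus the mean of these markers was -0.89 ± 0.135 log2 units in control hearts and -0.91 ± 0.262 in adenine hearts. The difference of -0.016 (exact two-sided permutation p = 0.943, also after adjustment) ran from -0.10 to 0.10 as each library was left out. With the median of the list in place of the mean, the difference was -0.15 (exact permutation test, adjusted p = 0.718). The markers did not move alike. Named after their values were seen, Acta2 was at 169.8 to 435 CPM in control hearts and 60.2 to 266.1 CPM in adenine hearts. Cspg4 was at 19.5 to 24.2 CPM and 19.7 to 24.6 CPM. The part of mural cells in the Gucy1b1 level was not tested beyond this ratio.

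**Figure D4:**
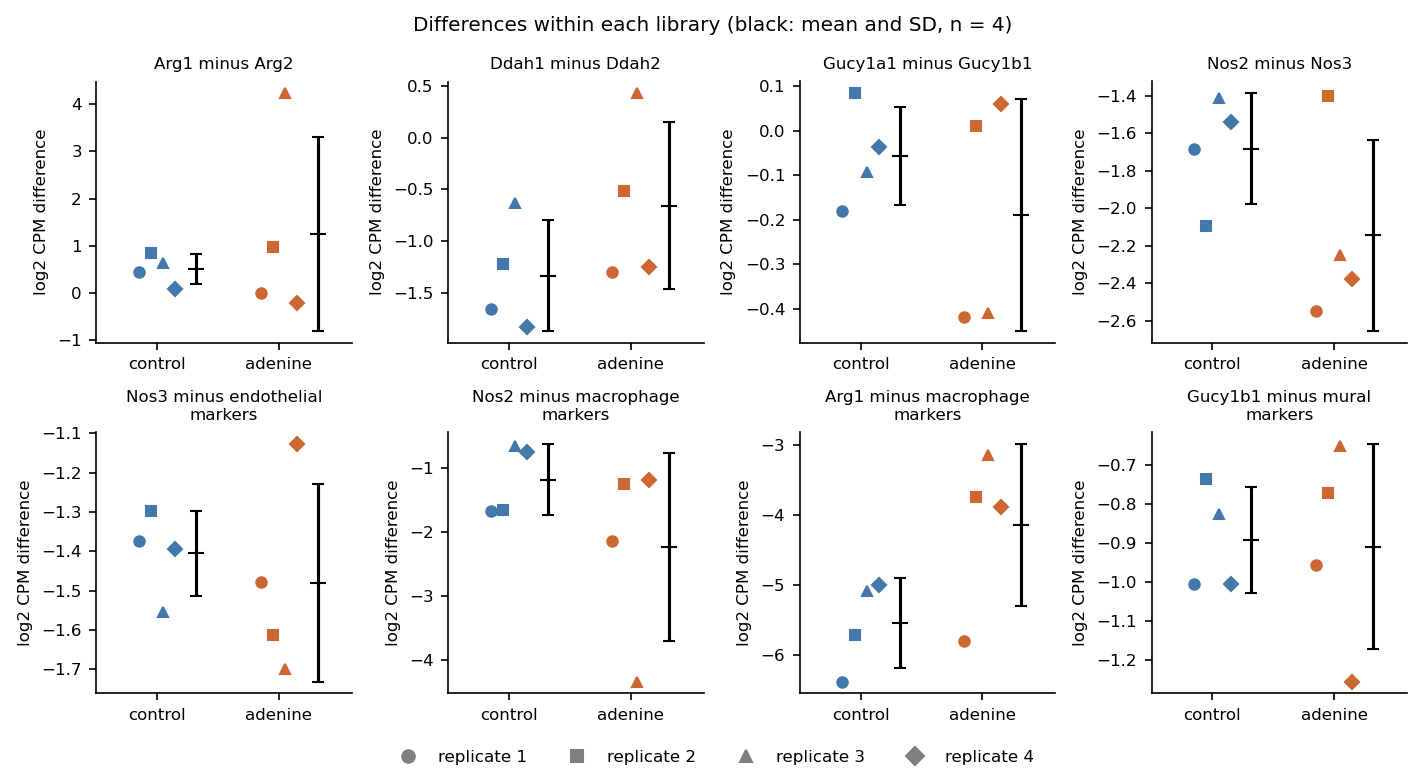
Differences of log2 CPM within each library between 2 genes, or between a gene and the mean of a marker list, in control (blue) and adenine (orange) libraries, with mean and SD of 4 libraries in black. The groups overlap in all 8 panels, and adenine 3 is the highest or lowest library in all but Gucy1a1 minus Gucy1b1 and Nos2 minus Nos3.

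The guanylate cyclase genes are neighbours on the minus strand of chromosome 3, Gucy1b1 (ENSMUSG00000028005) at 82032006 to 82074689 and Gucy1a1 (ENSMUSG00000033910) at 82092427 to 82145789, with 17.7 kb and no annotated gene between them. Their upstream sequence is shown because the genes are neighbours and encode subunits of one dimer. The stretch for Gucy1b1, chr3:82074712-82074961, ends at the base before its RefSeq start (GRCm38.p6, minus strand). RefSeq gives more than one start for Gucy1a1. The outer stretch, chr3:82145790-82145900, ends at the base before the GENCODE gene and 140 bases before a RefSeq start. The inner stretch, chr3:82145074-82145262, lies inside the GENCODE gene and ends at the base before another RefSeq start. Capitals mark matches as above.
Gucy1b1: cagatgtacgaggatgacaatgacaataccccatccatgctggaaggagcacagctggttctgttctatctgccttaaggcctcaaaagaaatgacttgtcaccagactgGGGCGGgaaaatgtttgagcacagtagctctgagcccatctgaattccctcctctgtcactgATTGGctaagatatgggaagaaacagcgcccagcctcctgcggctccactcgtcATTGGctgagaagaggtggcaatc
Gucy1a1, outer: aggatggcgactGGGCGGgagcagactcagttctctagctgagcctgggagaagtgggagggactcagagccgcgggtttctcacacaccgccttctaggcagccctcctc
Gucy1a1, inner: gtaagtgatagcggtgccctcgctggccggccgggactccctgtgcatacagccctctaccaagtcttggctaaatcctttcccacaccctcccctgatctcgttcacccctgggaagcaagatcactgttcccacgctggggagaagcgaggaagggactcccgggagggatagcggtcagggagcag
Gucy1b1 has a GC box from 140 bases and inverted CCAAT boxes (ATTGG) from 78 and 24 bases before its start. The outer Gucy1a1 stretch also holds a GC box, from 238 bases before its RefSeq start, and the inner one holds none of the 3 motifs. The GC content is 63.1% in the outer and 61.4% in the inner Gucy1a1 stretch, against 51.2% for Gucy1b1.

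Further genes of cGMP signalling were given by a list of 13, all tested and none past the threshold, with 9 negative and 4 positive log2 fold changes. Pde1c, a calmodulin-dependent phosphodiesterase of cardiomyocytes and smooth muscle, was at 43.6 to 70.1 CPM in control hearts and 34.4 to 38.6 CPM in adenine hearts, without overlap. Its log2 fold change was -0.58 (SE 0.17, adjusted p = 0.216 in edgeR). Mrvi1, the cGMP kinase substrate that restrains calcium release, had -0.75 (SE 0.26), which was -0.44 without control 2. Pde9a, a cGMP-specific phosphodiesterase, had -0.60 (SE 0.23). With the receptor background as a covariate, Pde1c had -0.435 (SE 0.188) and Mrvi1 -0.55 (SE 0.326). Named after their values were seen, the kinase gene Prkg1 had -0.24 (SE 0.20) and Pde5a, the target of sildenafil, -0.045 (SE 0.20). Also named after their values were seen were Gucy1b2, with 1.20 (SE 0.53), and Prkg2, with 0.79 (SE 0.33), which had 0.41 and 0.43 with the receptor background as a covariate. Pde2a stood in the table on 2 rows, of which the one with more reads was used, so its level is uncertain.

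Partners and regulators of the synthases were given by a list of 14, all tested and none past the threshold, with 10 negative and 4 positive log2 fold changes. Cav1, the caveolar protein that binds and inhibits endothelial NO synthase, was at 336 to 453 CPM in control hearts and 201 to 291 CPM in adenine hearts, without overlap, with -0.57 (SE 0.18, adjusted p = 0.227 in edgeR). Nostrin is an adaptor in the internalisation of that synthase. It was at 5.01 to 9.09 CPM in control hearts and 9.76 to 11.5 CPM in adenine hearts, also without overlap. Its log2 fold change was 0.46 (SE 0.19, adjusted p = 0.274 in edgeR), and 0.298 without control 2. With the receptor background as a covariate, Cav1 had -0.447 (SE 0.176) and Nostrin 0.342 (SE 0.207). Calm3, 1 of 3 calmodulin genes, had -0.41 (SE 0.19). Among 5 genes of NO and nitrosothiol removal, none passed. Cygb, cytoglobin, an NO dioxygenase of fibroblasts and smooth muscle, had -0.42 (SE 0.19), Mb, myoglobin, -0.30 (SE 0.23) and Ngb, neuroglobin, 0.68 (SE 0.49) at no more than 1.12 CPM.

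Over the 6 lists together, 0 of 53 tested genes passed in edgeR, 0 in limma-voom and 1 in DESeq2, Agxt2, where DESeq2 called 1.63% of all genes. At an unadjusted p under 0.05 there were 5 higher and 5 lower, against 10.9% and 6.63% of all genes tested. The diets were without overlap for 3 genes that were higher and 2 that were lower, against 3.45% and 3.84% of all genes tested. The median log2 fold change over these genes was -0.15.

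**Figure D5:**
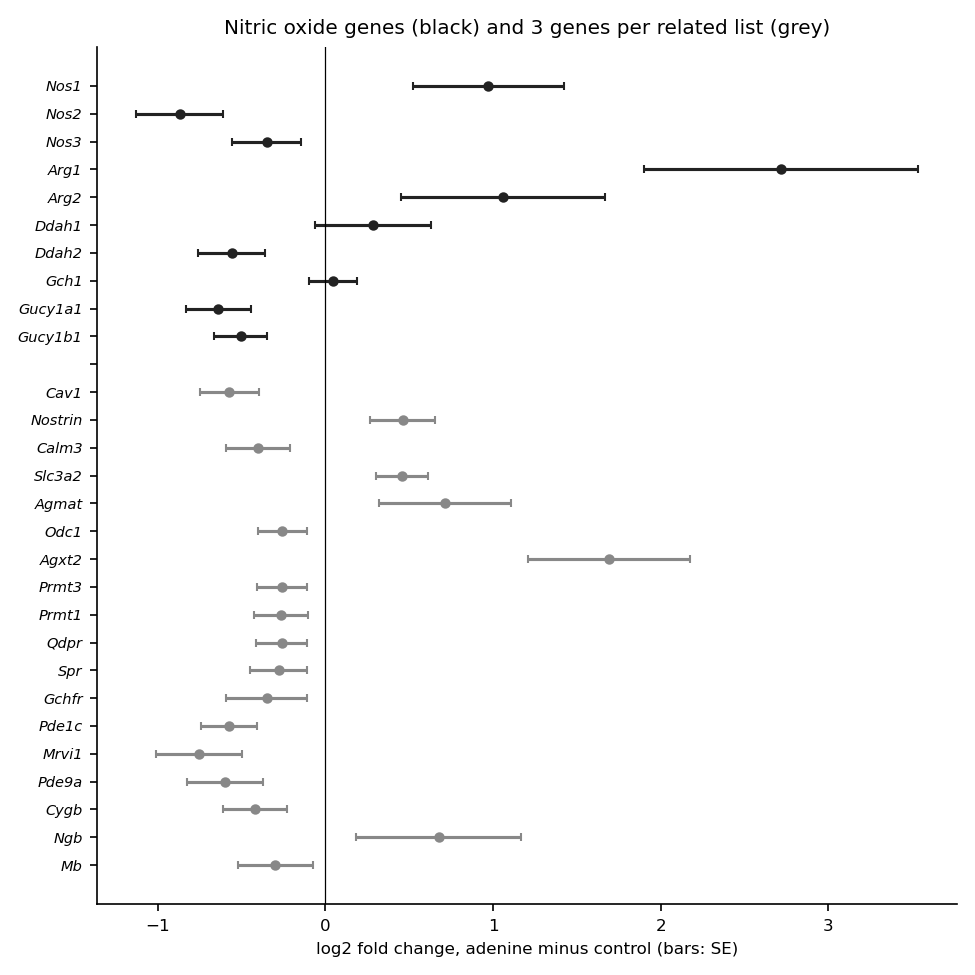
Log2 fold change, adenine minus control, with SE from edgeR for the 10 genes (black) and for the 3 genes with the lowest p in each of 6 related lists (grey). Of the 10 genes, Nos2, Ddah2, Gucy1a1 and Gucy1b1 lie below 0 and Arg1 and Nos1 above 0 by more than 2 SE, and none of the genes shown passed the threshold over all genes.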

How the data were processed

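Sample titles gave the groups and replicate numbers. The authors deposited one table of raw read counts per gene, per the file headers and values. Per the submitters' processing notes, reads were handled with STAR 2.7.6a and FastQC 0.11.9 on GRCm38.p6. Which counter, annotation and strand setting followed is not stated there. The test was run with edgeR 4.0.16 under R 4.3.3: the default filter by group, TMM factors, a quasi-likelihood F-test of diet, standard errors from the F statistic, and Benjamini-Hochberg adjustment over 20093 genes. Log2 CPM used a prior count of 2. For within-library differences, an exact two-sided permutation test over 70 assignments was used (smallest p 0.0286). Positions and exon lengths came from GENCODE M21, which matched 27225 identifiers, and promoters from RefSeq. Alternatives used DESeq2 1.42.0, limma 3.58.1, other scalings and filters, libraries left out and a replicate block. Fits were tested on simulated counts. Precision is limited by total counts of 15626620 to 33886385. Replicates differed by more than sampling noise (chi-square per gene 18.7 to 86.1), and each was kept as its own sample.

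The members, the gene lists and the tests were chosen with earlier results of these data known. All 10 members are named, with the called genes of each related list or otherwise up to 3 genes with the lowest p, and for each member with a mean of at least 1 CPM the 3 genes most like it over the libraries.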

Additional observations from a re-analysis of the deposited data

Results flagged for a closer look

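In 36 groups of 4 values (the CPM of each gene and the within-library differences, per diet), 2 had a library whose gap to the nearest other was unusually large for the group's range by Dixon's test, a limit that chance passes in about 1 in 20 groups. Both were in adenine 3: Arg1 with 7.90 CPM (gap 0.884 of the range) and Ddah1 with 28.5 CPM (gap 0.929 of the range). Adenine 3 is also the library with the highest summed macrophage markers, 11 of the 12 being highest there, while 3 of 8 fibroblast markers were highest and 4 were below every control. Their part in these values was not tested.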

How the results depend on the processing

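The number of genes called over the whole table was 8 and moved to 19 with upper-quartile factors, 328 in DESeq2, 5 in limma-voom, 31 at an adjusted p under 0.1 and 22 with the receptor background as a covariate, a setting added after seeing the data. It ran from 1 to 67 as each library was left out. With the replicate number as a block it was 32, and the block called 0 of the 10 genes. Deviations of same-numbered libraries had r = 0.086, -0.5, -0.16 and 0.3 for numbers 1 to 4. Pairs with different numbers had r from -0.489 to 0.538. These values cannot tell whether same-numbered libraries were handled together. The number of the 10 genes called was 0 and became 1, Nos2, in DESeq2 and 1, again Nos2, with the receptor background. It stayed at 0 under the other alternatives, each library left out included. Of 176 values recomputed for single members, 173 kept their direction and side of the threshold, the 2 for Nos2 passed it, and Ddah1, at -0.35 to 0.48 as each library was left out, turned to -0.35 without adenine 3. The cause was not tested. Under the receptor background setting, the log2 fold change was -0.42 (SE 0.244) for Nos3, 0.605 (SE 0.356) for Ddah1 and 0.078 (SE 0.149) for Gch1. For the 8 within-library differences no alternative gave a call, and the exact test without 1 library was not run. The smallest exact p of 0.0286, adjusted over 8, could not pass for a difference that separated alone. The replicate block, with few sign patterns, could not pass either. The lack of calls is therefore no sign that these differences are stable or absent. Arg2 had no adjusted p in DESeq2. Arg1 and Arg2 could not be fitted where the filter asked for 1 CPM in 4 libraries, and Arg2 not without mitochondrial transcripts. Arg1 and Arg2, mostly under 1 CPM, rest on few reads.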

Other observations

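For each of 9 members with a mean of at least 1 CPM, the genes whose log2 CPM followed it most closely over the 8 libraries were sought among 16022 genes. These are descriptions of 8 libraries, in which the diets, depth and cell content are shared, and the best of so many genes is high by selection. Nos3 was most like Larp7, Trmt1 and Acd (Pearson r = 0.982, 0.962 and 0.962). Nos2 was most like Ppp1r16b, Dchs1 and Rasgrp3 (0.971, 0.952 and 0.947), and Nos1 like Mmp25, Eif4a3l1 and Slc44a5 (0.994, 0.992 and 0.991). Arg1 was most like Pfkfb4, Lcp2 and Ifi27l2b (0.983, 0.983 and 0.974), and Ddah1 like Acot9, Gtf2h1 and Zeb2 (0.986, 0.985 and 0.985). Arg1 reached a mean of 1 CPM through adenine 3 only, with 7.90 CPM there and 0.280 to 1.16 CPM in the other libraries. Ddah1 was also far highest in adenine 3, and the likeness of either gene without that library was not computed. Ddah2 was most like Bcl7c, Sema3b and S100a16 (0.986, 0.981 and 0.98), and Gch1 like Ctla2a, Eif2s2 and Ltbp2 (0.973, 0.97 and 0.959). Gucy1a1 was most like Slc9a2, Ldhd and Cdpf1 (0.986, 0.985 and 0.984), and Gucy1b1 like Kcnd2, Pskh1 and Agtpbp1 (0.997, 0.996 and 0.993).

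Markers of other cell types were summed per library. Neutrophil markers were at 4.07 to 6.97 CPM over 7 genes in control hearts and 8.56 to 13.4 CPM in adenine hearts, without overlap, and none of the 7 passed in edgeR. Csf3r alone gave 8.69 CPM of the sum in adenine 3, and each other marker was at no more than 2.02 CPM. Singly, Csf3r and Mmp8 were higher without overlap between the diets, as were 3.45% of all genes tested, whereas S100a8, S100a9, Ly6g, Camp and Ngp overlapped. The sum was lowest in control 2, as was the receptor background. S100a9, Ly6g, Mmp8 and Ngp were highest in adenine 2, where that background was highest, but S100a8, Camp and Csf3r were not. The part of this background in the neutrophil sum was not tested. Erythroid markers were at 9468 to 34690 CPM over 6 genes in control hearts and 2252 to 4562 CPM in adenine hearts, and none of the 6 passed. Atrial markers ranged from 105.5 CPM in adenine 2 to 4864 CPM in control 2, and adipocyte markers from 4.14 to 43.2 CPM, with the highest value also in control 2. Control 2 was the library with the highest Gucy1a1 and Gucy1b1 and the lowest Nos1 and Nos2 of the controls, and the part of the dissected tissue in these values was not tested.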
